A study of Mus musculus with 15 samples.

Results

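The genes described here are 10 that control entry into S phase, chosen by name out of 23329 genes counted by RNA-seq. They are the D cyclins *Ccnd1*, *Ccnd2* and *Ccnd3*, the E cyclins *Ccne1* and *Ccne2*, the kinases *Cdk4* and *Cdk6*, the inhibitors *Cdkn1b* and *Cdkn2c*, and *Rb1*. All 10 had more than 1 CPM (reads per megaread of the library, by library totals) in at least 3 libraries and were tested. The levels given below are CPM scaled by TMM factors unless stated. The question asked of them was which D cyclin each tumor type carries, and whether loss of *Casp2* changes that.

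RNA was taken from the tumors of 15 mice, 1 library per mouse. The 4 *EμMyc* and 3 *EμMyc/Casp2-/-* lymphomas came from cervical lymph nodes of mice on a C57BL/6 background, in which the immunoglobulin heavy chain enhancer Eμ drives c-Myc in B cells. Their tumors had appeared at 13 to 19 and at 8 to 12 weeks. The 4 *Th-MYCN* and 4 *Th-MYCN/Casp2-/-* neuroblastomas were paraspinal thoracic tumors of mice on a Sv129/C57BL6 background, which carry MYCN under the promoter of tyrosine hydroxylase and so express it in sympathetic cells. They were chosen for having few or no blood vessels, with onset at 10 to 21 and at 15 to 24 weeks. Both *Casp2-/-* groups lack *Casp2*, which the other groups carry. As each tumor is from another mouse, the p-values measure the spread between tumors. Tumor type, transgene, tissue and strain background change together and cannot be told apart. Single tumors are named as labelled, for example EuMycC2ko215.

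Progression through G1 is driven by cyclin-dependent kinases. D cyclins, made in response to growth signals, bind CDK4 or CDK6 and phosphorylate the retinoblastoma protein, which releases E2F factors. E2F in turn induces the E cyclins, partners of CDK2, and the genes of DNA replication. INK4 proteins such as p18, encoded by *Cdkn2c*, bind CDK4 and CDK6, whereas p27, encoded by *Cdkn1b*, mainly restrains cyclin E with CDK2. The D cyclins are used in a tissue-dependent way, and B cells are known for cyclins D2 and D3 rather than D1.

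Both kinase genes have a RefSeq promoter window in which the E-box CACGTG, the letters bound by MYC and MYCN with MAX, occurs. The part of each window in front of its first annotated exon is shown (GRCm38), because *Cdk4* was not called between the tumor types while *Cdk6* differed more than any other member. Capitals mark CACGTG and, in *Cdk6*, 1 match to TTTNNCGC, a loose form of the E2F site that allows any letter at N. The match holds TA there, where the E2F consensus has G or C, so it is not a full E2F site.
Cdk4, chr10:127063285-127063533, plus strand: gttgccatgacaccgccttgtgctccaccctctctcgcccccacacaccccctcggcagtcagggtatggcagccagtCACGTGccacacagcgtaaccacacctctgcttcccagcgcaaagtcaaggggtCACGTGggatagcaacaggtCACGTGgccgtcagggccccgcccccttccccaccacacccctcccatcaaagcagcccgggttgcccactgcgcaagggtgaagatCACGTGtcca
Cdk6, chr5:3343643-3343731, plus strand: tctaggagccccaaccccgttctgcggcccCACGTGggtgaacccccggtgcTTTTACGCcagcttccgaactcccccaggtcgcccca
The *Cdk4* stretch lies upstream of the gene, and the *Cdk6* stretch lies in the first intron of an annotated transcript that starts farther upstream. The *Cdk4* window held 4 copies of CACGTG and the *Cdk6* window 1. Both strands were searched over the 250 bases in front of each start, and no copy of one motif overlapped a copy of the other. Of 32851 windows of all genes, 6.02% held CACGTG and 7 held at least 4 copies. TTTNNCGC was in 4.28% of them. Windows were found for 6 members, 8 windows in all, of which 2 held CACGTG, 1 held TTTNNCGC and 6 held the GC box GGGCGG, which was in 32.7% of all windows. A match is a run of letters and not a measured binding site.

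The counts are reads on 1 of the 2 strand columns, 4940464 (EuMycC2ko215) to 17638029 per library, so that 3 reads correspond to 0.170 to 0.607 CPM. That column held 48.8% to 49.3% of the reads of both, as in a library without strand information, so reads of a gene and of an overlapping gene on the other strand are not separated. The 7 B cell markers used (such as *Cd79a* and *Pax5*) summed to 1233 to 3655 CPM in the lymphomas and 10.9 to 26.6 CPM in the neuroblastomas. The 7 sympathetic neuroblast markers used (such as *Th* and *Dbh*) summed to 2.44 to 22.7 and 2487 to 5053 CPM, in that order. EuMycC2ko215 stood apart by a sum of 1405 CPM over the 7 T cell markers found, against 21.3 to 140 CPM in the other lymphomas, and had the lowest depth. *Casp2*, counted over the whole gene, was at 125 to 203 CPM in *EμMyc* and 51.9 to 76.1 CPM in *EμMyc/Casp2-/-* tumors, and at 76.0 to 125.5 CPM in *Th-MYCN* and 39.6 to 80.2 CPM in *Th-MYCN/Casp2-/-* tumors, where the groups overlapped. Its log2 fold change by edgeR's quasi-likelihood test (QLF) was -1.36 ± 0.26 (SE, FDR 0.0536) in the lymphomas and -0.79 ± 0.23 (SE, FDR 0.327) in the neuroblastomas. The likelihood ratio test gave FDR 4e-04 and 0.101.

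*Ccnd1* (chr7:144929931-144939925), which encodes cyclin D1, was the most abundant D cyclin in every tumor per kilobase of all annotated exons, and it was much higher in the neuroblastomas. Its level was 369, 242, 334 and 321 CPM in the *EμMyc* tumors and 257, 240 and 305 CPM in the *EμMyc/Casp2-/-* tumors. In the *Th-MYCN* tumors it was 2224, 1878, 1536 and 2003 CPM, and in the *Th-MYCN/Casp2-/-* tumors 1826, 1967, 2865 and 2094 CPM. Every neuroblastoma was above every lymphoma. The fold change was 6.04 between the *EμMyc* and *Th-MYCN* tumors (log2 -2.59 ± 0.19 SE, QLF FDR 1.81e-08). It was 8.18 between the *Casp2-/-* tumors (log2 -3.03 ± 0.22 SE, QLF FDR 1.97e-08).

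*Ccnd3* (chr17:47505051-47599691), which encodes cyclin D3, ran the other way. It was at 108, 109, 100 and 302 CPM in *EμMyc* and 295, 120 and 115 CPM in *EμMyc/Casp2-/-* tumors. The *Th-MYCN* tumors had 19.3, 30.0, 38.7 and 24.8 CPM and the *Th-MYCN/Casp2-/-* tumors 25.3, 21.8, 28.4 and 28.7 CPM. The tumor types did not overlap, and EuMyc835 and EuMycC2ko215 were well above the other lymphomas. *Ccnd3* was 5.48-fold higher in *EμMyc* than in *Th-MYCN* tumors (log2 2.45 ± 0.39 SE, QLF FDR 6.8e-05) and 6.77-fold higher between the *Casp2-/-* groups (log2 2.76 ± 0.41 SE, QLF FDR 4.21e-05). Without EuMyc835 the first value was 1.91, and without EuMycC2ko215 the second was 2.23.

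The end of *Ccnd3* overlaps *Bysl* on the other strand, over 361 of 8775 exon bases. Reads in the overlap, which the deposited either-strand column leaves out, were 18.4% to 27.3% of the *Ccnd3* reads in 14 tumors and 52.9% in EuMycC2ko215. In that column, scaled by library totals, *Ccnd3* was at 228 CPM in EuMyc835, 144 CPM in EuMycC2ko215, 74.2 to 90.8 CPM in the other 5 lymphomas and 15.9 to 29.4 CPM in the neuroblastomas. The difference between tumor types was 2.45 on the log2 scale in both genotypes by this column. The annotation also holds a processed pseudogene of *Ccnd3*, so reads that match both are uncertain.

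*Ccnd2* (chr6:127125162-127152193), which encodes cyclin D2, was low and scattered. It was at 6.47, 16.1, 7.40 and 24.9 CPM in *EμMyc*, 7.81, 19.5 and 66.3 CPM in *EμMyc/Casp2-/-*, 5.07, 11.3, 13.2 and 37.4 CPM in *Th-MYCN*, and 5.62, 9.70, 11.4 and 9.26 CPM in *Th-MYCN/Casp2-/-* tumors. All 4 groups overlapped. Its log2 fold change was -0.29 ± 0.65 (SE, QLF FDR 0.715) between *EμMyc* and *Th-MYCN* tumors. It was 1.80 ± 0.70 (SE, QLF FDR 0.0379) between the *Casp2-/-* tumor types, but 0.61 (QLF FDR 0.475) without EuMycC2ko245, the highest lymphoma. Leaving out any 1 of the 4 *Th-MYCN/Casp2-/-* tumors also ended that call.

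**Figure D1:**
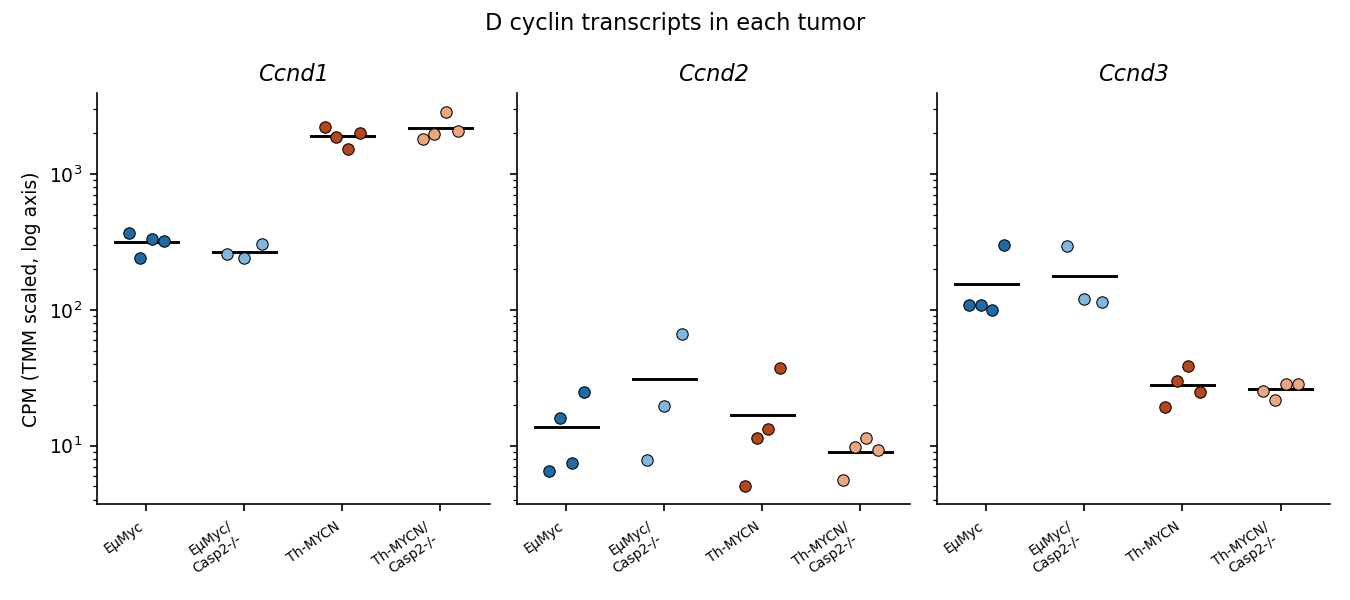
Level of each D cyclin (CPM, log axis) in each tumor by group. Points are tumors and lines are group means. *Ccnd1* is at 1536 CPM or more in all 8 neuroblastomas and at 369 CPM or less in all 7 lymphomas, *Ccnd3* is higher in the lymphomas, and *Ccnd2* overlaps throughout.

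The makeup of the D cyclin total was computed per kilobase of exon, as a description. *Ccnd1* made up 98.7% ± 0.524 (SD, n = 4) of it in *Th-MYCN* and 99.2% ± 0.0948 (SD, n = 4) in *Th-MYCN/Casp2-/-* tumors. In the lymphomas it made up 78.6% ± 9.78 (SD, n = 4) in *EμMyc* and 71.3% ± 8.65 (SD, n = 3) in *EμMyc/Casp2-/-* tumors. *Ccnd3* supplied most of the rest, with 19.7% ± 9.01 and 24.6% ± 11.7 (SD) in the lymphoma groups against 0.824% ± 0.372 and 0.645% ± 0.104 (SD) in the neuroblastoma groups. The *Ccnd3* share ran from 13.5% in EuMyc614 to 37.7% in EuMycC2ko215, and in EuMyc835 it was 32.7%. *Ccnd2* reached 8.3% in EuMycC2ko245 and stayed at or under 3.10% in the other 14 tumors. The *Ccnd1* and *Ccnd3* shares did not overlap between tumor types, while within a tumor type the genotypes overlapped in the *Ccnd1* share.

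The share in lymphomas depends strongly on the length that is set for *Ccnd3*, whose annotated exons span 8775 bases in all but only 2258 in the transcripts paired with a RefSeq mRNA. With the latter lengths *Ccnd1* made up 56.9% in *EμMyc* and 48.2% in *EμMyc/Casp2-/-* tumors, and *Ccnd3* was ahead of *Ccnd1* in 2 of 7 lymphomas, EuMyc835 and EuMycC2ko215. With the longest transcript of each gene, or without a correction for length, *Ccnd3* was ahead in 1 of 7, EuMycC2ko215. By the either-strand column, with all annotated exons, *Ccnd1* led in 7 of 7 lymphomas, and the *Ccnd3* share of EuMycC2ko215 was 23%. By that column *Ccnd1* made up 82.2% in *EμMyc* and 78.6% in *EμMyc/Casp2-/-* tumors, and *Ccnd3* made up 15.9% and 17%. That column leaves out reads in the overlap with *Bysl*, whichever gene they came from. It was not combined with RefSeq or longest transcript lengths, so it does not settle which D cyclin leads with those. In the neuroblastomas *Ccnd1* led in 8 of 8 tumors under every length tried, and its lowest share in any tumor was 95.5%.

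**Figure D2:**
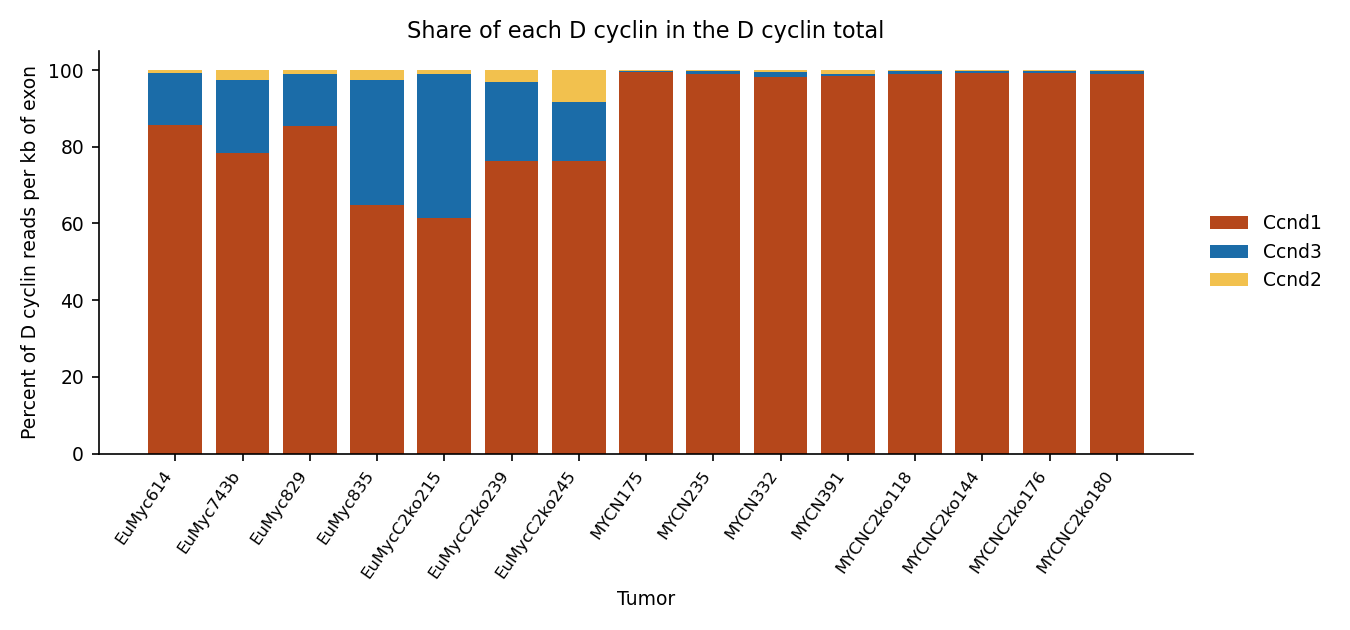
Share of each D cyclin in the summed D cyclin reads per kilobase of exon, as a stacked bar from 0 to 100% for each of the 15 tumors. *Ccnd3* fills 13.5% to 37.7% of the bar in the 7 lymphomas and at most 1.33% in the 8 neuroblastomas.

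Markers of other cells in the lymphomas were set beside *Ccnd1*, as B cells are not known for cyclin D1. *Ccnd1* varied 1.53-fold among the 7 lymphomas. Sums over the 8 fibroblast and pericyte markers ran from 382 CPM in EuMycC2ko245 to 1423 CPM in EuMyc614, those over the 7 macrophage markers found from 335 CPM in EuMycC2ko245 to 1690 CPM in EuMycC2ko215, and those over the 8 endothelial markers from 168 to 330 CPM. EuMyc614 had the highest *Ccnd1* level, the highest fibroblast and pericyte sum and the lowest endothelial sum. EuMyc743b and EuMycC2ko239, next in the fibroblast and pericyte sum with 1173 and 880 CPM, had the lowest *Ccnd1* levels of the lymphomas, 242 and 240 CPM. Whether such cells carry the *Ccnd1* reads of the lymphomas was not tested, and in bulk tumors fewer cells of a type and less RNA per cell cannot be told apart.

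The E cyclins differed less. *Ccne1* (chr7:38097984-38107534) was at 81.7 to 152 CPM in *EμMyc*, 48.5 to 112 CPM in *EμMyc/Casp2-/-*, 62.8 to 122.5 CPM in *Th-MYCN* and 91.8 to 159 CPM in *Th-MYCN/Casp2-/-* tumors. All groups overlapped, with log2 fold changes between tumor types of 0.27 ± 0.28 (SE, QLF FDR 0.429) and -0.61 ± 0.31 (SE, QLF FDR 0.104). *Ccne2* (chr4:11191351-11204779) was at 94.4, 101, 94.6 and 67.4 CPM in *EμMyc* and at 40.6, 35.6, 41.0 and 35.9 CPM in *Th-MYCN* tumors, without overlap. That was a 2.33-fold difference (log2 1.22 ± 0.27 SE, QLF FDR 0.00107). In the *Casp2-/-* groups *Ccne2* was at 32.2, 83.3 and 54.4 CPM in the lymphomas and 45.6, 39.7, 45.0 and 23.0 CPM in the neuroblastomas, which overlapped (log2 0.57 ± 0.28 SE, QLF FDR 0.0997).

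Most strand reads of *Ccne2* fall where it overlaps *Ints8* on the other strand, 609 of 3495 exon bases. The either-strand column leaves out 55.6% to 79.5% of them. By that column *Ccne2* was at 23.9 to 44.6 CPM in *EμMyc* and 14.3 to 17.3 CPM in *Th-MYCN* tumors and was still called (log2 1.09, QLF FDR 0.0234). *Ints8* itself was at 69.2 to 102 CPM and 44.3 to 61.1 CPM in these groups by the same column.

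*Cdk4* (chr10:127063534-127067920) and *Cdk6* (chr5:3341485-3531008), the kinases that D cyclins activate, behaved differently from each other. *Cdk4* was at 495, 535.5, 610 and 337 CPM in *EμMyc*, 618.5, 506.5 and 422 CPM in *EμMyc/Casp2-/-*, 639, 626, 483 and 704 CPM in *Th-MYCN*, and 519, 468.5, 627 and 620 CPM in *Th-MYCN/Casp2-/-* tumors. The 4 groups overlapped. Between tumor types its log2 fold change was -0.31 (95% interval -0.72 to 0.10, QLF FDR 0.177) and, in the *Casp2-/-* tumors, -0.12 (95% interval -0.56 to 0.33, QLF FDR 0.658). A difference of 2-fold lies outside both intervals. The highest tumor exceeded the lowest 1.84-fold among the lymphomas and 1.5-fold among the neuroblastomas.

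*Cdk6* was nearly absent from the neuroblastomas, with 2, 7, 4 and 10 reads in *Th-MYCN* and 4, 3, 3 and 4 reads in *Th-MYCN/Casp2-/-* tumors, close to the floor of 3 reads. It had 12, 223, 219 and 49 reads in *EμMyc* and 45, 204 and 219 reads in *EμMyc/Casp2-/-* tumors. In CPM these were 1.05, 19.1, 17.2 and 5.20, and 8.79, 17.0 and 22.1, against 0.122 to 0.618 in all neuroblastomas. Every lymphoma was above every neuroblastoma, and EuMyc614 was by far the lowest lymphoma. The fitted log2 fold changes were 4.82 ± 0.79 (SE, QLF FDR 7.99e-05) and 5.83 ± 0.85 (SE, QLF FDR 3.2e-05). *Cdk6* passed the filter through the lymphomas alone, and the size of these folds rests on the few reads of the neuroblastomas.

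Per kilobase of exon *Cdk4* exceeded *Cdk6* in every tumor, by 82.2- to 2030-fold in the lymphomas and 4907- to 22514-fold in the neuroblastomas. Both upper limits rest on 1 tumor with few *Cdk6* reads, and without EuMyc614 (12 reads) and MYCN175 (2 reads) they were 303-fold and 10466-fold. The latter comes from MYCNC2ko144 with 3 reads. All neuroblastomas had 2 to 10 *Cdk6* reads, so each of their ratios is uncertain. The log2 of *Cdk4* over *Cdk6* was 8.32 ± 1.85 (SD, n = 4) in *EμMyc*, 7.20 ± 0.96 (SD, n = 3) in *EμMyc/Casp2-/-*, 13.06 ± 1.01 (SD, n = 4) in *Th-MYCN* and 13.12 ± 0.19 (SD, n = 4) in *Th-MYCN/Casp2-/-* tumors. The log2 ratio did not overlap between tumor types. The SD of 0.19 in *Th-MYCN/Casp2-/-* tumors comes from 4, 3, 3 and 4 *Cdk6* reads, so it does not show how certain the ratio is. EuMycC2ko245 had the highest level of both *Cdk6* and *Ccnd2*.

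Of the inhibitors, *Cdkn1b* (chr6:134920401-134925513) separated the tumor types with the least scatter. It was at 83.2, 83.5, 85.8 and 90.6 CPM in *EμMyc* and 75.0, 81.5 and 98.4 CPM in *EμMyc/Casp2-/-* tumors. The *Th-MYCN* tumors had 199, 201, 187 and 209 CPM and the *Th-MYCN/Casp2-/-* tumors 193.5, 207, 166 and 182 CPM. No lymphoma reached the lowest neuroblastoma. *Cdkn1b* was 2.32-fold lower in *EμMyc* than in *Th-MYCN* tumors (log2 -1.21 ± 0.13 SE, QLF FDR 9.65e-07) and 2.20-fold lower between the *Casp2-/-* groups (log2 -1.14 ± 0.14 SE, QLF FDR 6.48e-06). Without EuMycC2ko215 the second difference fell to the 2-fold threshold and was no longer called (QLF FDR 4.72e-05).

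*Cdkn2c* (chr4:109660876-109667189), the gene of p18, was at 12.7 to 37.4 CPM in *EμMyc*, 18.7 to 30.7 CPM in *EμMyc/Casp2-/-*, 3.58 to 28.4 CPM in *Th-MYCN* and 27.9 to 35.5 CPM in *Th-MYCN/Casp2-/-* tumors. The lowest value, 3.58 CPM, was that of MYCN332. Between tumor types it gave 0.71 ± 0.46 (SE, QLF FDR 0.190) and -0.39 ± 0.50 (SE, QLF FDR 0.519) on the log2 scale.

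*Rb1* (chr14:73183673-73325822), whose product is the substrate of these kinases, was at 42.4, 44.3, 39.2 and 84.8 CPM in *EμMyc*, 12.3, 53.3 and 42.0 CPM in *EμMyc/Casp2-/-*, 60.5, 57.5, 45.8 and 56.4 CPM in *Th-MYCN*, and 61.7, 59.4, 77.5 and 35.5 CPM in *Th-MYCN/Casp2-/-* tumors. It overlapped in all groups and was not called between tumor types (log2 -0.06 ± 0.37 SE, QLF FDR 0.894, and -0.70 ± 0.40 SE, QLF FDR 0.150). EuMyc835 was the highest lymphoma for both *Rb1* and *Ccnd3*. EuMycC2ko215 had the lowest *Rb1*, *Ccne1* and *Ccne2* of all lymphomas. It also had the lowest depth and the largest part of its reads in overlaps with other genes. That part was 52.9% for *Ccnd3* and 79.5% for *Ccne2*, where MYCNC2ko176 came next with 77.7%. The part of its other cell types, of its depth and of where its reads fall along genes was not tested for these values.

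**Figure D3:**
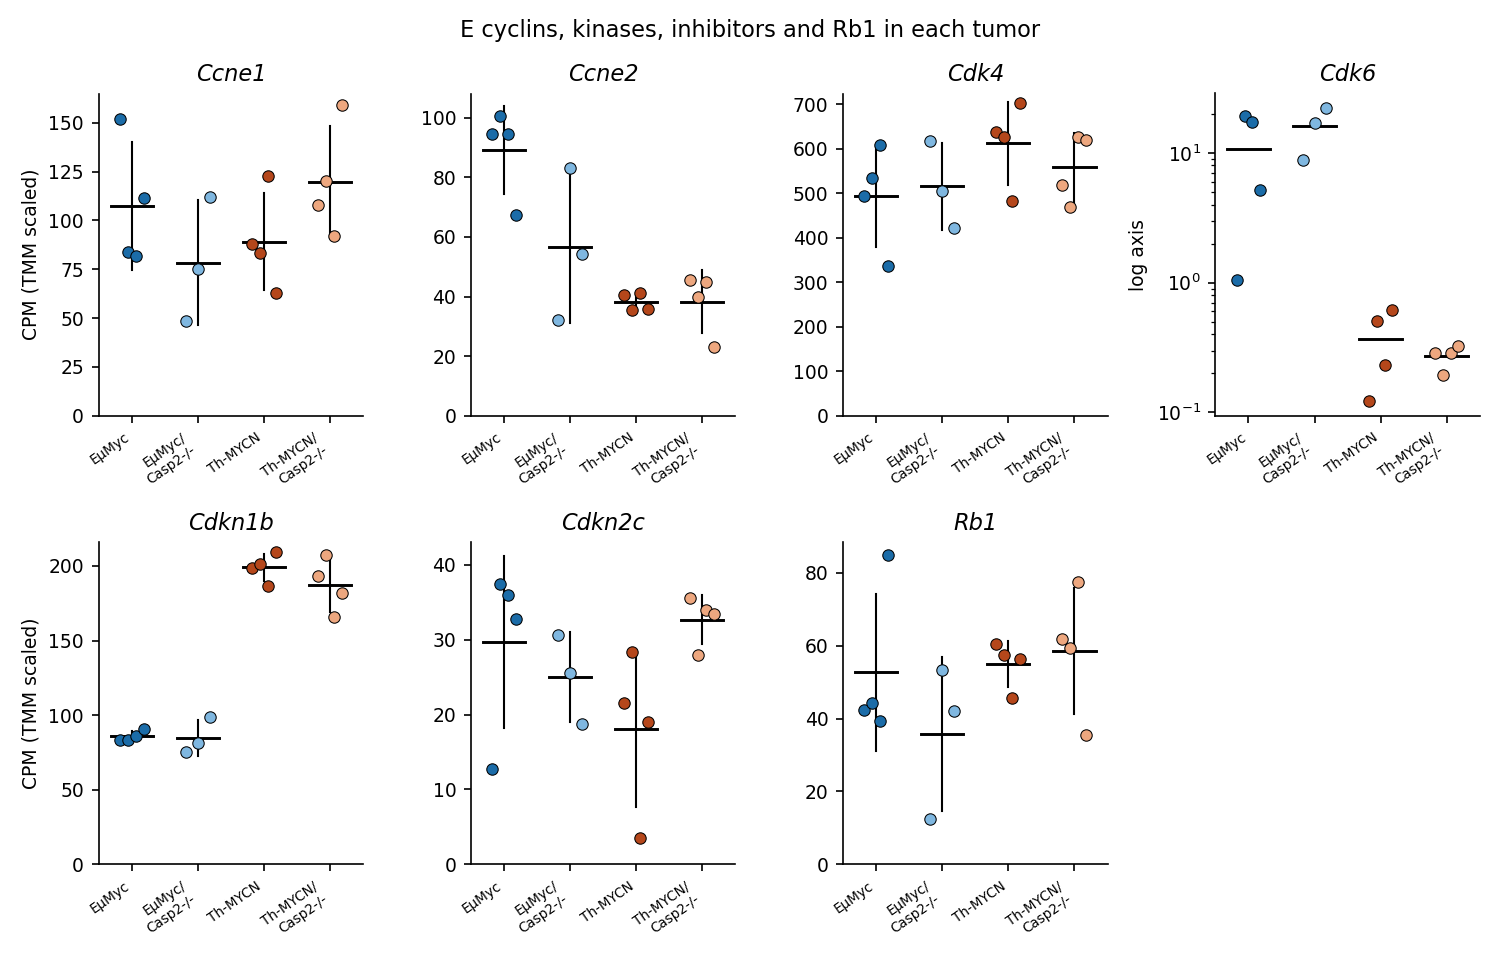
Levels (CPM) of *Ccne1*, *Ccne2*, *Cdk4*, *Cdk6* (log axis), *Cdkn1b*, *Cdkn2c* and *Rb1* in each tumor. Points are tumors, horizontal lines group means and vertical lines 1 SD, not drawn for *Cdk6*. *Cdk6* and *Cdkn1b* separate the tumor types in opposite directions, and *Cdk4* is between 337 and 704 CPM throughout.

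Per kilobase of exon the levels can be ordered between genes. In the neuroblastomas *Ccnd1* came first with 326 to 608.5 CPM per kb, above *Cdk4* with 144 to 217 CPM per kb. *Cdkn1b* (36.4 to 45.95 CPM per kb) and *Ccne1* (23.6 to 59.8 CPM per kb) followed and overlapped each other. In the lymphomas *Cdk4* came first with 104 to 190 CPM per kb, above *Ccnd1* with 51.0 to 78.3 CPM per kb. *Ccne1* followed with a median of 31.5 CPM per kb, and in EuMyc614, its highest tumor, reached 57.1 CPM per kb, within the range of *Ccnd1*. *Ccne2*, *Cdkn1b* and *Ccnd3* came next and overlapped, with medians of 23.8, 18.3 and 13.1 CPM per kb. The place of *Ccne2* rests on reads in its overlap with *Ints8*, 55.6% to 79.5% of its strand reads in the lymphomas. This order in the lymphomas depends on the length, since with RefSeq lengths the median of *Ccnd3* was 51.1 CPM per kb, above *Ccne1* with 41.9, *Cdkn1b* with 34.9 and *Ccne2* with 26.0 CPM per kb, and *Ccnd3* (44.4 to 134 CPM per kb) overlapped *Ccnd1* (64.3 to 98.6 CPM per kb).

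Of the 10 members, 3 were higher and 2 lower in *EμMyc* than in *Th-MYCN* tumors by QLF (FDR under 0.05 and more than 2-fold). Over all 14880 genes tested 18.3% were higher and 27.8% lower, so calls are common in this comparison. The groups did not overlap for 5 members, against 59.4% of all genes. Between the *Casp2-/-* tumor types 3 members were higher and 2 lower, beside 19.7% and 26.6% of all genes, and 4 members did not overlap, beside 54.8% of all genes. *Ccnd1*, *Ccnd3*, *Cdk6* and *Cdkn1b* were called in both, and of these *Cdk6* passed the filter through the lymphomas alone. The median log2 fold change of the members was 0.10 and -0.25, and that of all genes -0.04 and -0.05.

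Loss of *Casp2* called none of the members in either tumor type. Among the lymphomas 0 of 10 passed QLF, beside 0.141% of all genes. An unadjusted p under 0.05 was found for 1 member, beside 1269 of all 14880 genes. The likelihood ratio test called 0 members, beside 170 genes higher and 45 lower, and DESeq2 called 0, beside 203 genes. For 0 members did the groups not overlap, beside 3.70% of all genes. The smallest p was that of *Ccne2* (log2 -0.65 ± 0.29 SE, unadjusted p = 0.04, QLF FDR 0.55). That value was -0.36 without EuMycC2ko215. In the neuroblastomas 0 of 10 passed QLF, beside 0.0336% of all genes, and 0 had an unadjusted p under 0.05, beside 1008 of all 14880 genes. The likelihood ratio test called 0 members, beside 28 genes higher and 93 lower, and DESeq2 called 0, beside 116 genes. No member was free of overlap, beside 6.62% of all genes. The largest change by p was that of *Cdkn2c* (log2 0.85 ± 0.46 SE, QLF FDR 0.812), and it was 0.51 without MYCN332.

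How far a change by genotype is bounded differs between members. For *Ccnd1* the 95% interval of the log2 fold change was -0.66 to 0.17 in the lymphomas and -0.19 to 0.58 in the neuroblastomas. *Cdkn1b* had -0.31 to 0.28 and -0.36 to 0.18, and *Cdk4* -0.38 to 0.50 and -0.54 to 0.28. These leave out a 2-fold change in either direction. The intervals of *Ccnd2* (-0.28 to 2.67 and -2.29 to 0.49) and *Cdk6* (-0.88 to 2.06 and -2.15 to 1.31) do not. In the lymphomas the value of *Ccnd3*, 0.19 ± 0.40 (SE, QLF FDR 0.924), rests on single tumors, being 0.74 without EuMyc835 and -0.38 without EuMycC2ko215. It also changed sign by the either-strand column (log2 -0.16, QLF FDR 0.924).

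Whether *Casp2* loss acted differently in lymphomas and in neuroblastomas was tested as an interaction, which was not called for any of the 10 members, beside 0.0538% of all genes. The 1 member with an unadjusted p under 0.05, beside 1127 of all 14880 genes, was *Ccnd2* (log2 2.09 ± 0.95 SE, unadjusted p = 0.044, QLF FDR 0.655). Leaving out single tumors moved its value between 0.91 and 2.55. The likelihood ratio test called 0 members, beside 108 genes with a positive and 28 with a negative value, and DESeq2 called 0, beside 123 genes.

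**Figure D4:**
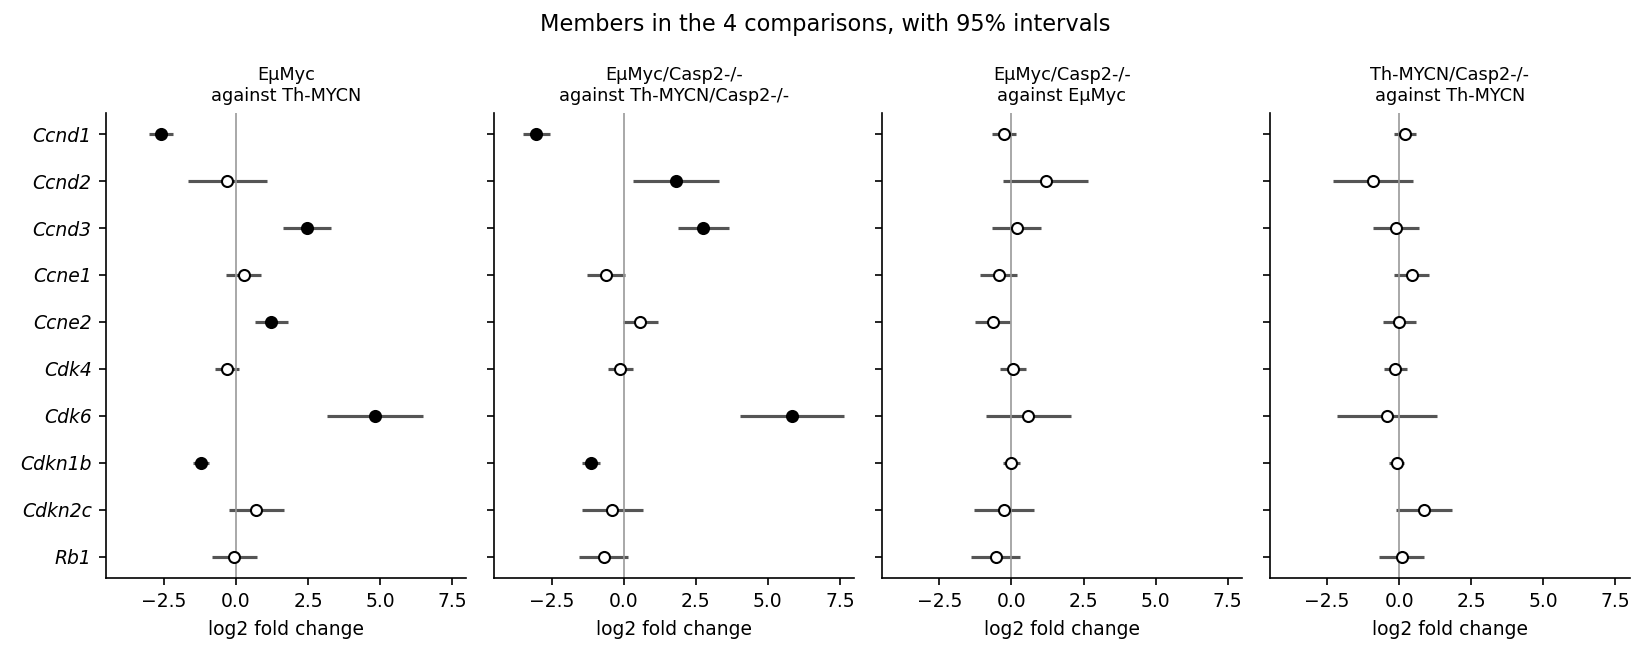
Log2 fold change of each member in the 4 comparisons, with the 95% interval from QLF. Filled points passed an FDR under 0.05 and 2-fold, open points did not. Filled points are found in the comparisons of tumor types only, and *Cdk6* and *Ccnd2* have the widest intervals.

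The rest of the pathway was read from a list of 54 other genes of G1 and S phase, all of which were tested. In *EμMyc* against *Th-MYCN* tumors 8 were higher and 6 lower, beside 18.3% and 27.8% of all genes. Between the *Casp2-/-* tumor types it was again 8 and 6, beside 19.7% and 26.6% of all genes. In both the lower genes include *Ccna1*, which passed the filter through the neuroblastomas alone. The same shares of all genes apply to the counts by role that follow. Their median log2 fold change was 0.34 and 0.28. In the comparisons by genotype 0 of 54 were called in the lymphomas, 0 in the neuroblastomas and 0 in the interaction. Of all genes 0.141%, 0.0336% and 0.0538% were called. In that order 3, 2 and 1 of the 54 had an unadjusted p under 0.05, beside 1269, 1008 and 1127 of all 14880 genes. The likelihood ratio test and DESeq2 called 0 of the 54 in each, beside the counts of all genes given for the members.

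Of 7 genes of the S phase cyclins, *Cdk2* and its activators, 2 were higher and 1 lower in *EμMyc* tumors. *Cdk2*, the kinase that cyclin E binds, was at 161 to 274 CPM in *EμMyc* and 29.2 to 43.9 CPM in *Th-MYCN* tumors, a 5.88-fold difference (log2 2.56 ± 0.23 SE, QLF FDR 1.83e-07). In the *Casp2-/-* tumors it was 4.58-fold higher in the lymphomas. *Ccna1*, a cyclin A best known from male germ cells, had 0 reads in all lymphomas, 80 to 135 reads in *Th-MYCN* and 40 to 85 reads in *Th-MYCN/Casp2-/-* tumors, which was at least 25.9-fold and 12.9-fold higher against 3 reads per library. *Ccna1* is the 1 gene called lower here, and it passed the filter through the neuroblastomas alone. The other gene that was higher, named after its values were seen, was *Ccnh*, the cyclin of the CDK-activating kinase (log2 1.02 ± 0.22 SE, QLF FDR 0.00104), which was under 2-fold between the *Casp2-/-* tumor types (log2 0.83).

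Among E2F and DP factors 2 of 10 were higher and 1 lower in *EμMyc* tumors. *E2f2*, an activator, was at 356 to 590 CPM against 99.99 to 125 CPM in *Th-MYCN* tumors (log2 1.94 ± 0.21 SE, QLF FDR 1.19e-06). *E2f4*, a factor that acts mostly with the pocket proteins to repress, was at 183 to 234 CPM against 65.6 to 68.3 CPM (log2 1.61 ± 0.13 SE, QLF FDR 4.27e-08). Both were also higher between the *Casp2-/-* groups. The factor that was lower, named after its values were seen, was the repressor *E2f6* (log2 -1.16 ± 0.30 SE, QLF FDR 0.00326). Of the pocket proteins related to RB1, *Rbl1* (p107) was 2.70-fold higher in *EμMyc* tumors (log2 1.44 ± 0.235 SE, QLF FDR 8.44e-05), and *Rbl2* (p130) gave 0.36 ± 0.19 (SE, QLF FDR 0.105).

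The other inhibitors moved in both directions, with 1 of 5 higher and 2 lower in *EμMyc* tumors. *Cdkn2a*, the gene of p16 and p19Arf, was at 8.05, 6.24, 389 and 282 CPM in *EμMyc* and 57.6, 15.4 and 451 CPM in *EμMyc/Casp2-/-* tumors, against 0.367 to 11.3 CPM in the neuroblastomas. The lymphomas EuMyc829, EuMyc835 and EuMycC2ko245 were far above the others, and its log2 fold change was 7.16 ± 1.61 (SE, QLF FDR 0.00129). The 2 that were lower, named after their values were seen, were *Cdkn1a* (p21, log2 -1.45 ± 0.37 SE, QLF FDR 0.0036) and *Cdkn2d* (p19, log2 -1.01 ± 0.33 SE, QLF FDR 0.0147). *Cdkn1c* (p57) gave -1.80 ± 0.81 (SE, QLF FDR 0.0663) and passed between the *Casp2-/-* tumor types (log2 -3.08 ± 0.97 SE, QLF FDR 0.0132).

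Of 8 genes in the turnover of cyclins and p27, 0 were called higher and 2 lower. *Fbxw7*, whose product marks cyclin E and MYC for degradation, was 2.89-fold lower in *EμMyc* than in *Th-MYCN* tumors (log2 -1.53 ± 0.29 SE, QLF FDR 3.08e-04), and *Cul4a*, a ubiquitin ligase scaffold, 2.13-fold lower (log2 -1.09 ± 0.19 SE, QLF FDR 1.4e-04). Without the 2-fold threshold, where 8976 of all 14880 genes passed in either direction, 2 of the 8 were higher and 4 lower. Those higher, named after their values were seen, were the ubiquitin ligase subunits *Fbxo4* (log2 0.88 ± 0.29 SE, QLF FDR 0.0162) and *Skp2* (log2 0.69 ± 0.28 SE, QLF FDR 0.0415). *Fbxw7* was called between the *Casp2-/-* tumor types as well, and *Cul4a* (log2 -0.95) was not. Of 16 replication genes 2 were higher and 0 lower, the DNA clamp *Pcna* (log2 1.34 ± 0.20 SE, QLF FDR 2.87e-05) and the helicase subunit *Mcm4* (log2 1.23 ± 0.24 SE, QLF FDR 3.43e-04). Between the *Casp2-/-* tumor types *Mcm4* was called and *Pcna* (log2 0.86 ± 0.21 SE, QLF FDR 0.00234) was under 2-fold. None of the 6 proliferation genes was called. *Mki67*, the gene of the Ki-67 antigen, was at 1182 to 1437 CPM and 625.3 to 832 CPM (log2 0.92 ± 0.24 SE, QLF FDR 0.00371), and the mitotic kinase *Aurkb* gave 0.93 ± 0.20 (SE, QLF FDR 8.34e-04). Between the *Casp2-/-* tumor types neither passed, with 0.43 ± 0.26 (SE, QLF FDR 0.157) for *Mki67* and 0.45 ± 0.21 (SE, QLF FDR 0.079) for *Aurkb*.

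**Figure D5:**
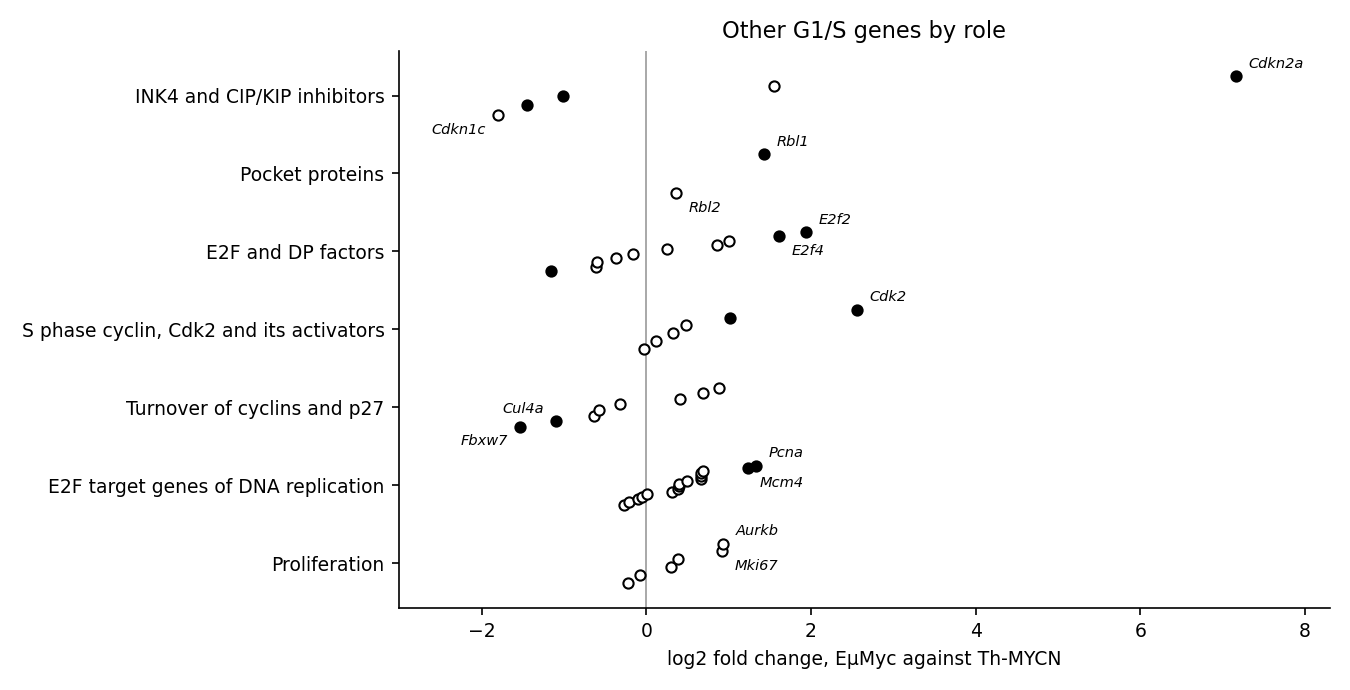
Log2 fold change in *EμMyc* against *Th-MYCN* tumors of 53 other G1 and S phase genes, grouped by role. Filled points passed an FDR under 0.05 and 2-fold, open points did not, and *Ccna1*, without a read in the lymphomas, is left out. *Cdkn2a* and *Cdk2* lie farthest to the right, and the proliferation genes lie within 2-fold.

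The genes most like each D cyclin were found by Pearson's r of log2 CPM, a description over all tested genes. Across the 15 tumors *Ccnd1* was most like *Gm11837* (r = 0.994), *Serp2* (r = 0.991) and *Shd* (r = 0.990), and *Ccnd3* most like *Lpcat3* (r = 0.971), *Arid5a* (r = 0.967) and *Mns1* (r = 0.966). Such values follow the difference between tumor types, which many genes share. *Ccnd2* came closest to *Cux1* (r = 0.814), *Gk5* (r = 0.748) and *Irf2bp2* (r = 0.702). After each group's mean was taken away, *Ccnd1* was most like *Apoa1bp* (r = 0.900), *Gps2* (r = 0.880) and *Kif6* (r = 0.856), *Ccnd2* most like *Gfi1b* (r = 0.897), *Igj* (r = 0.865) and *Lipg* (r = 0.848), and *Ccnd3* most like *Lgi4* (r = 0.925), *Vldlr* (r = 0.919) and *Homer2* (r = 0.916). Single tumors that stand apart, such as EuMyc835 for *Ccnd3*, weigh heavily in these.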

How the data were processed

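Tumor RNA of 15 mice was measured by RNA-seq. Poly(A) RNA was read from 1 end over 50 bases. STAR was the aligner and counter, on genome build mm10/GRCm38, and the authors deposited unnormalized read counts, with 3 columns per gene (both strands together, then each alone). The second strand column, the one the study used, was analysed here. The annotation release and tool versions are not given in the sources used here. Rows that name no gene, 66.4% to 71.8% of that column, were left out of library sizes. A further *EμMyc/Casp2-/-* tumor that the study excluded was not analysed here.

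The tests were run with edgeR 4.0.16 and limma 3.58.1 under R 4.3.3. Genes with more than 1 CPM in at least 3 libraries (14880) were kept, scaled by TMM, and fitted with 4 group means over all 15 libraries. The quasi-likelihood test (QLF) was used, with Benjamini-Hochberg FDR over all 14880 genes, and a gene was called at FDR under 0.05 if it also differed by more than 2-fold. SE is the log2 fold change divided by the square root of F. Scripts were tested on simulated data. Alternatives were the likelihood ratio test, DESeq2 1.42.0, other scalings and filters, the either-strand column, onset as covariate, and each library left out. Depth was 4940464 to 17638029 reads, and floors of 3 reads cover counting error only. Exon lengths and overlaps came from GENCODE M21 (GRCm38), which placed 20953 of the 23329 gene names, and promoters from RefSeq (GRCm38.p6). The members and the lists were chosen with earlier results of these data known. Other genes named are, per role, the 2 with the largest log2 fold change in *EμMyc* against *Th-MYCN*, any called by genotype, and the 3 most like each D cyclin (log2 CPM with a prior count of 2). The B cell and sympathetic neuroblast marker lists each leave out 1 gene that is not reported here.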

Additional observations from a re-analysis of the deposited data

Results flagged for a closer look

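In groups of 4 tumors, 1 tumor stood far from the other 3 in 7 of 87 groups of values examined, and chance gives such a gap in about 1 in 20. Members were among them only in EuMyc835, whose *Ccnd3* was at 302 CPM with the next *EμMyc* tumor at 109 CPM and whose *Rb1* was at 84.8 CPM with the next at 44.3 CPM. The same tumor had the highest *E2f2*, 590 CPM against 392 CPM for the next. MYCNC2ko144 had 11.3 CPM of *Cdkn2a*, the next *Th-MYCN/Casp2-/-* tumor having 1.45 CPM, and 57.9 CPM of *Rbl2*, the next having 40.6 CPM. *Cdkn1c* was at 22.5 CPM in EuMyc614 and at 2.97 CPM in the next *EμMyc* tumor. *Mki67* was at 447 CPM in MYCNC2ko176, below 821 CPM in the nearest *Th-MYCN/Casp2-/-* tumor. That tumor also had the highest *Ccnd1* of all, 2865 CPM, and the latest onset, 24 weeks. EuMyc835 had the latest onset of the lymphomas, 19 weeks, and the highest sum of B cell markers, 3655 CPM. The part of onset and of cell makeup in these values was not tested.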

How the results depend on the processing

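Over 890 values of single members under the alternatives, 884 kept their side of the threshold and 6 lost their call, 5 of *Ccnd2* and 1 of *Cdkn1b*, all between the *Casp2-/-* tumor types. No called value changed sign, and 29 that were not called did. Leaving out 1 tumor kept the number of called members at 5 between *EμMyc* and *Th-MYCN* tumors, at 4 to 5 between the *Casp2-/-* types and at 0 elsewhere, and the other G1 and S phase genes at 13 to 16, 11 to 17 and 0. Without the 2-fold threshold these other genes came to 27 and 26 in place of 14 and 14, beside 8976 and 8669 of all 14880 genes. *Casp2* in the lymphomas was called by the likelihood ratio test (-1.35), DESeq2 (-1.32), without a filter (-1.36) and with filterByExpr (-1.35), and was -1.53 to -1.21 with 1 tumor left out, called without EuMycC2ko245.

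Shares and ratios moved with the gene length, by construction. With the longest transcript, no length and RefSeq lengths, the *Ccnd1* share was 68.2%, 66.9% and 56.9% in *EμMyc*, 59.7%, 57.3% and 48.2% in *EμMyc/Casp2-/-*, 98%, 97.6% and 97% in *Th-MYCN*, and 98.6%, 98.4% and 97.8% in *Th-MYCN/Casp2-/-* tumors, and 99.3% in the last by either strand, with and without shared exons. The *Ccnd3* share was 30.1%, 30.3% and 41.7% in *EμMyc*, 1.48%, 1.52% and 2.49% in *Th-MYCN*, 1.16%, 1.19% and 1.96% in *Th-MYCN/Casp2-/-* tumors (by either strand 0.481%, and 0.501% over exons not shared), and 48.3% in *EμMyc/Casp2-/-* tumors with RefSeq lengths. Without length *Ccnd2* was 2.81%, 0.865% and 0.404% in the groups other than *EμMyc/Casp2-/-*, in the order used for *Ccnd3*, and 6.72% in *EμMyc/Casp2-/-* tumors (13.6% in EuMycC2ko245). The log2 of *Cdk4* over *Cdk6* without length was 6.21, 5.10, 10.95 and 11.01 in the order *EμMyc*, *EμMyc/Casp2-/-*, *Th-MYCN*, *Th-MYCN/Casp2-/-*. In *Th-MYCN/Casp2-/-* tumors it was 13.50 with the longest transcript and 13.50 with RefSeq lengths. By either strand it was 13.12 there, and 13.43 with the lengths of exons not shared. The latter shortens *Cdk4*, while the either-strand column leaves out at most 0.0193% of its reads in any tumor. RefSeq lengths, exons not shared and the alternatives for *Casp2* were chosen after seeing the data. Few reads limit *Cdk6* in the neuroblastomas. No paired analysis was possible because the tumors came from different mice and their replicate numbers only name them.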
